A study of Mus musculus with 3 samples.

Results

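The Arg1 and Spp1 macrophages of mouse glioma are described here as leukocytes with several transcripts of macrophage genes typical of tumors and few or no transcripts of chosen genes of microglia, border macrophages and neutrophils. Members were chosen on raw counts of unique molecular identifiers (UMIs), each of which stands for 1 captured mRNA molecule. A member was a cell of a CD45+ library with at least 500 UMIs, at least 500 genes and at most 20% mitochondrial UMIs. It held at least 5 UMIs of Arg1, Spp1 and Gpnmb together and at least 2 of Lyz2. It held at most 2 UMIs of the microglial genes P2ry12, Tmem119 and Gpr34 together, at most 2 of the border macrophage genes Mrc1, Cbr2 and Pf4 together, and fewer than 30 of the neutrophil genes S100a8 and S100a9 together. There were 194 members among 11218 CD45+ cells that passed the filters, out of 20811 deposited cells. The early tumor sample gave 8 members, the medium 35 and the late 151.

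The study followed the cells of glioblastoma (GBM) in mice as tumors grew. Its text divides tumors into early and late by their luminescence, whereas the deposited annotation of libraries, used here, gives early, medium and large, and large is called late. The animals were adult mice of both sexes on a mixed background, with a conditional human EGFR transgene, Cdkn2a-/- and a conditional luciferase reporter. All 3 tumor samples share these alleles, and all tumors were started by injecting a virus that carries Cre recombinase into the brain, so no wild-type or uninjected brain is compared here. Viable CD45+ cells were sorted after collagenase digestion, Percoll separation and lysis of red cells, and were captured as single cells on the inDrop system. The 3 deposited samples are sequencing runs, and each holds libraries of all 3 stages. The study pooled each of its early samples from 2 mice or tumors because cells were few. Its text has no medium stage, so whether the medium sample here was a pool is not known. Each stage is 1 tumor sample in 4 technical libraries. Stage therefore cannot be told apart from the animal, and no test between stages was possible. Normal brain was not analysed here.

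Macrophages that enter tumors commonly switch on Arg1, which encodes arginase 1, an enzyme that breaks down arginine and is used as a marker of alternative activation. Spp1 encodes osteopontin, a secreted matrix and cytokine-like protein, and Gpnmb encodes a membrane glycoprotein of lysosome-rich phagocytes. Lyz2 encodes lysozyme of myeloid cells, and Retnla encodes a resistin-like protein induced with Arg1 by type 2 cytokines.

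The label holds only in part. Arg1 was present in 0 of 8 early, 6 of 35 medium and 92 of 151 late members, and Retnla, which the selection did not use, was seen in late members only (27.8% of cells). With no UMI seen, up to 37.5% of early and 8.57% of medium members could still hold a UMI of the gene, and this sets no limit on how many express it. Spp1, which the selection used, was present in 6 of 8 early, 27 of 35 medium and 118 of 151 late members. Of the marker lists of other cells, the summed T cell genes took 31.2, 52.9 and 37.4 CPM (UMIs scaled to a total of 1000000) in early, medium and late members, NK cell genes 0, 0 and 29.6 CPM, B cell genes 0, 10.6 and 15.8 CPM, and the 4 haemoglobin genes were at 0. Genes of glioma cells or oligodendrocyte progenitors took 31.2, 74.1 and 53.2 CPM, oligodendrocyte genes 125, 42.3 and 138 CPM, astrocyte genes 0, 116 and 43.4 CPM, and endothelial genes 62.4, 95.3 and 201 CPM. Among myeloid lists without the selecting genes, dendritic cell genes took 874, 593 and 784 CPM, mostly from Itgax, and neutrophil genes 125, 286 and 140 CPM. Border macrophage genes took 156, 529 and 495 CPM. Monocyte genes took 31.2, 572 and 461 CPM, and early members held 1 UMI of them. In contrast, 14 general macrophage genes, such as Csf1r, Cd68 and C1qa, took 27868, 23561 and 24683 CPM. They took 4271, 5026 and 3285 CPM in T cells of the same samples, whose level was read as a background. The 10 microglial genes that the selection did not use took 15416, 8510 and 8774 CPM in members, 51425, 38135 and 41481 CPM in microglia, and 6999, 4272 and 4168 CPM in T cells. How much of the level in members is such background was not tested. Origin from monocytes or from microglia was not tested.

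Members had a median of 3557, 2580 and 3074 UMIs in the early, medium and late sample, whereas all kept CD45+ cells had 1967, 1989.5 and 2115. Because the selection rests on raw counts, it favours deep cells, and results are also given for cells thinned to 1500 UMIs. The same limits were applied to the thinned counts, so the upper limits were easier to pass. A thinned member was therefore not always a member at full depth. The cell barcodes of 1517 kept cells, 25 of them members, occurred in another CD45+ library as well. Of the pairs that such cells formed, 683 lay within a tumor sample, with a median cosine of 0.415 between log profiles, and 309 between samples, with 0.332. Run 1 gave only 17 and 91 late CD45+ cells in its late libraries, and 143 in its early library. Xist, which is made from the inactive X of females, was at 406 CPM in early members and at 0 in medium and late ones, while the Y-linked Ddx3y was at 0, 52.9 and 59.1 CPM, so sex moves with stage too, and its part in the results was not tested.

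The share of members was highest in the late sample. Members were 0.157% of early CD45+ cells (8 of 5110, exact Clopper-Pearson 95% interval 0.0676 to 0.308), 0.878% of medium cells (35 of 3988, 0.612 to 1.22) and 7.12% of late cells (151 of 2120, 6.06 to 8.30). The intervals of the 3 stages did not overlap, but intervals here cover only the error of counting cells or UMIs, and the spread between animals is unknown. By library, the early share was 0 of 143 in run 1, 0 of 1732 in run 2, and 2 of 1480 and 6 of 1755 in run 3. A count of 0 has an exact upper 95% limit of 2.55% in the first of these and 0.213% in the second. The 4 medium libraries lay between 0.540% and 1.52%. The late libraries held 47.1% (8 of 17 cells) and 16.5% (15 of 91) in run 1, 7.55% (70 of 927) in run 2 and 5.35% (58 of 1085) in run 3. Every late library was above every medium one, and every medium one above every early one. Within run 1 the shares were 0, 0.873 and 21.3%, within run 2 they were 0, 0.882 and 7.55%, and within run 3 they were 0.247, 0.871 and 5.35%. All but 2 early members came from the run 3 library that held 6, and without it the early share was 0.0596%.

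**Figure D1:**
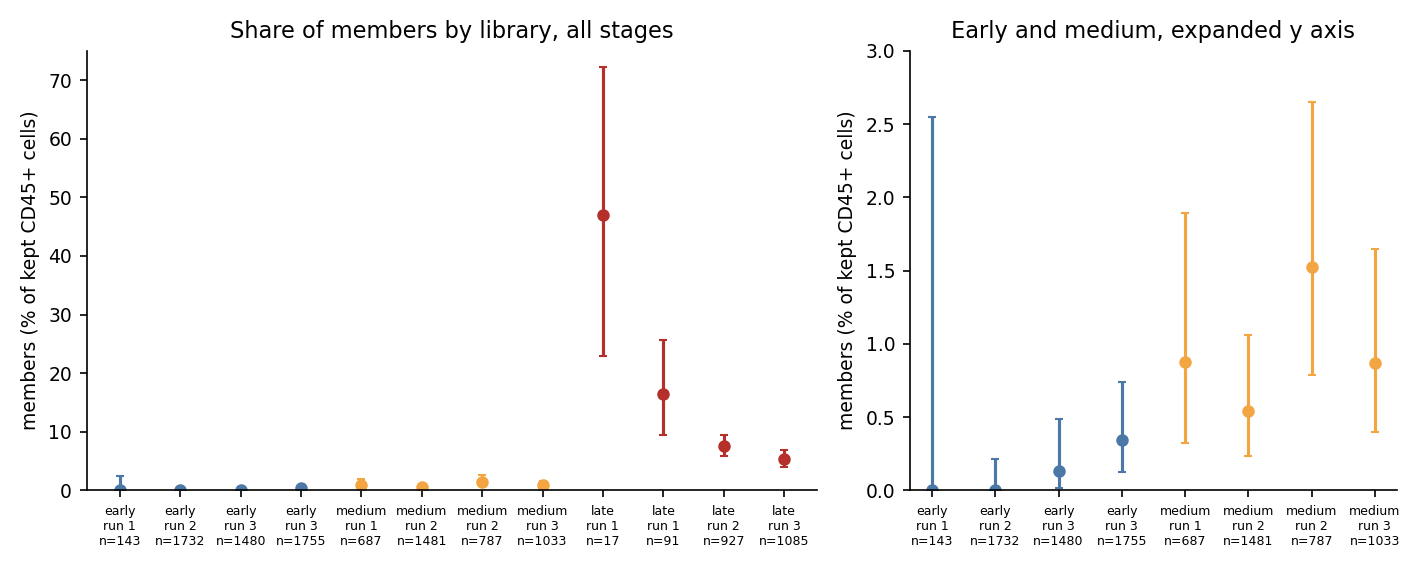
Share of members (percent of kept CD45+ cells) in each of the 12 CD45+ libraries, with exact 95% binomial intervals; the right panel repeats the early and medium libraries on an expanded axis. At full depth, the late libraries sit between 5.35% and 47.1%, above the medium ones (0.540 to 1.52%) and the early ones (0 to 0.342%).

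The order of the stages, each pooled over its libraries, was kept under every alternative tried. After thinning every cell to 1500 UMIs the shares were 0.125, 0.818 and 5.95% (5 of 4013, 26 of 3178 and 99 of 1663 cells). With at least 3 UMIs of the 3 selecting genes they were 0.274, 1.58 and 9.43%, and with at least 10 UMIs 0.117, 0.376 and 3.35%. Without cells that shared a barcode they were 0.148, 0.880 and 7.09%. At the threshold itself, 7 medium and 21 late members had exactly 5 UMIs, and no early member had fewer than 8. Just outside, 3 early, 13 medium and 16 late cells met the rest of the rule with 4 UMIs. Of the cells past both lower limits (11 early, 56 medium and 223 late), the limit on microglial genes removed 3, 11 and 50, and the limit on border macrophage genes 0, 10 and 23, with some over more than 1 limit.

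The selecting genes themselves, given as a description, changed in mix between the stages. Arg1 took 0, 529 and 1338 CPM in early, medium and late members, Spp1 6335, 5334 and 3664 CPM, and Gpnmb 1030, 868 and 144 CPM. Per member, Spp1 had a median of 19.5, 7 and 5 UMIs, with up to 178 in 1 late cell, and Arg1 a median of 0, 0 and 2, with up to 33. Among the late members, 47 held Spp1 but neither Arg1 nor Gpnmb, 49 held Arg1 and Spp1, 27 held Arg1 alone, and 11 held all 3 genes. Medium members were mostly of the first kind (21 of 35), and 5 held Gpnmb alone. Since a cell entered on the sum of these genes, a member without one of them had to be high in another. Lyz2 took 2465, 7906 and 5059 CPM.

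Background was read in T cells, defined by at least 3 UMIs of T cell receptor and Cd3 genes and at most 1 of Lyz2. How much of a T cell level comes from free RNA, from doublets or from the T cells themselves was not tested. Arg1 was found in 0 of the early, medium and late T cells (205, 232 and 78 cells, with median depths of 1951, 1963.5 and 1906.5 UMIs), and Retnla in none either, which allows a share of T cells with a UMI of up to 1.46, 1.29 and 3.85%. Gpnmb was found in 0.488% of early T cells and in none of the other samples. Spp1 was found in 0% of early, 12.9% of medium and 3.85% of late T cells, where it took 0, 256 and 15.9 CPM. On cells thinned to 1500 UMIs, Arg1 was present in 0, 19.2 and 59.6% of members, Spp1 in 80.0, 80.8 and 80.8%, and Retnla in 0, 0 and 25.3%. Thinned T cells held Spp1 in 0, 11.2 and 0%. The shares of members with Arg1, Spp1 or Gpnmb follow from the selection and support nothing.

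**Figure D2:**
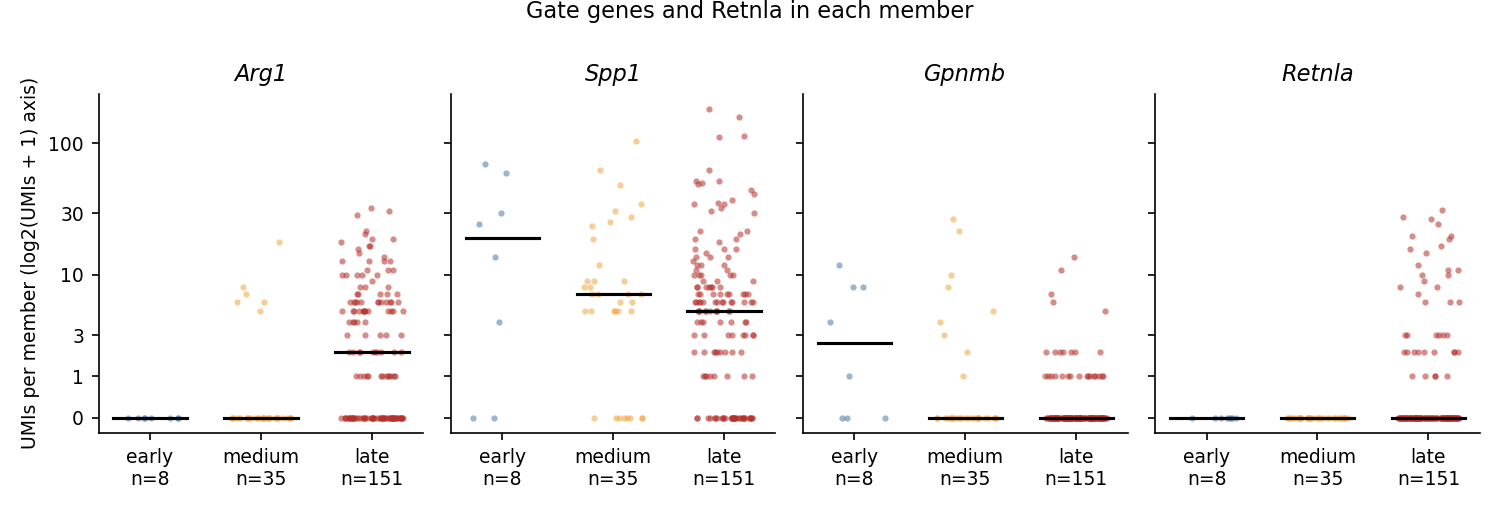
UMIs of Arg1, Spp1, Gpnmb and Retnla in each member (points, on a log2(UMIs + 1) axis) by stage. Arg1 is at 0 in all 8 early members and present in 92 of 151 late ones, and Retnla appears in late members only.

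Members were first compared with the nearest other cells, to ask which genes went with Arg1, Spp1 and Gpnmb. The comparison cells passed the same limits on Lyz2 and on microglial, border macrophage and neutrophil genes but held at most 1 UMI of Arg1, Spp1 and Gpnmb together (214 early, 1126 medium and 219 late cells, here called Arg1/Spp1-low cells). Their median depths were 2109.5, 1999.5 and 2085 UMIs. Counts were summed over each group within each tumor sample and tested with edgeR with tumor sample as a block, without the 12 genes of the rule. Of 7506 genes tested, 26 (0.346%) were higher and 35 (0.466%) were lower in members at an adjusted p under 0.05, 61 (0.813%) in all. With the p left unadjusted, 168 genes (2.24%) were higher and 313 (4.17%) lower at under 0.05, which is the background for the unadjusted counts of the lists. Among the higher were macrophage genes for lipid uptake, lysosomes and matrix, and among the lower were genes of antigen presentation and of the interferon response. The counts depended on the fit. DESeq2 gave an adjusted p to 2267 genes and called 8 of them (0.353%) higher and 9 (0.397%) lower. Without scaling factors edgeR called 38 and 33, and without the block 5 and 8. Leaving out the medium sample left 1 and 1, and leaving out the late sample 14 and 13. Thinned cells gave 5 and 5, and leaving out cells with shared barcodes gave 14 and 34.

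Mmp12, the macrophage elastase gene (ENSMUSG00000049723, GRCm38 chromosome 9, 7344381 to 7369499), had the largest fold of the 12 genes named as higher. It was at 780, 138 and 86.7 CPM in early, medium and late members and at 69.1, 8.52 and 11.8 CPM in the Arg1/Spp1-low cells of the same samples. Members were above the other cells in every sample, and the groups did not overlap. The log2 fold change was 3.31 (SE 0.47), with an edgeR adjusted p of 6.58e-09, and it passed the threshold in 10 of 11 alternatives. Olr1, a scavenger receptor for oxidized lipoproteins (ENSMUSG00000030162, chromosome 6, 129485244 to 129507165), was at 468, 63.5 and 78.8 CPM in members and at 26.4, 6.58 and 31.5 CPM in the other cells. Again the groups did not overlap (log2 fold change 2.62, SE 0.54, edgeR adjusted p 0.000659). The lipid-binding protein gene Fabp5 was at 531, 1355 and 861 CPM against 161, 169 and 254 CPM, with no overlap (2.08, SE 0.32, edgeR adjusted p 2.01e-07). Lpl, which encodes lipoprotein lipase, was at 3339, 1630 and 1665 CPM against 299, 729 and 823 CPM, so every member sample lay above every other one (1.67, SE 0.28, edgeR adjusted p 1.96e-06).

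Among growth and matrix factors, Hbegf, an EGF receptor ligand, was at 218, 159 and 84.7 CPM in members and at 16.3, 13.5 and 49.2 CPM in Arg1/Spp1-low cells, without overlap (log2 fold change 2.31, SE 0.52, edgeR adjusted p 0.00238). Igf1, which encodes an insulin-like growth factor, was at 250, 307 and 646 CPM against 32.5, 50.3 and 480 CPM. It was higher in 3 of 3 samples, but late Arg1/Spp1-low cells lay above early and medium members (1.57, SE 0.37). Fn1, the fibronectin gene, was at 125, 1196 and 1346 CPM against 260, 213 and 368 CPM. It was higher in the medium and late samples and lower in the early one, where members held 4 UMIs (1.46, SE 0.33). Postn, the periostin gene, rose by 2.68 (SE 0.64), yet 35 of the 62 UMIs of medium members came from 1 cell. Of the other genes named as higher, Vat1, Fam20c, Syngr1, Cst7 and Plk2 had log2 fold changes from 1.60 to 2.08. Of the 12 named, which were chosen for a large fold in 3 of 3 samples, 10 had groups that did not overlap, as had 6.13% of all 7506 genes tested in that direction. All 12 kept their sign in every alternative that tested them, and 0 passed the threshold in every one.

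The 12 genes named as lower had no UMI in early members, and their folds rest on few UMIs of members. The interferon-inducible Ifi205 was at 0, 0 and 1.97 CPM in members and at 128, 47.6 and 31.5 CPM in Arg1/Spp1-low cells (edgeR adjusted p 0.00358), and no fold is given because members held 1 UMI in all. Mgl2, a C-type lectin gene of antigen-presenting cells, was at 0, 0 and 23.7 CPM against 273, 37.2 and 144 CPM (log2 fold change -3.11, SE 0.61). Ly6c2, a gene of inflammatory monocytes, was at 0, 42.3 and 15.8 CPM against 250, 153 and 65.0 CPM (-2.39, SE 0.54). None of these 3 overlapped between the groups. Hspa1b, Napsa, Ifi211, Gpm6b and Siglech did not overlap either, as was so for 7.34% of all genes tested in that direction. The antibody genes Igha, Igkc and Jchain were lower too, and Igkc fell by 5.13 on the log2 scale, where the other cells held 1257, 2602 and 17.7 CPM of Igkc and members 0, 52.9 and 5.91 CPM. T cells of the medium sample held 14920 CPM of Igkc. Whether this came from free RNA or from doublets, and its part in this difference, was not tested.

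**Figure D3:**
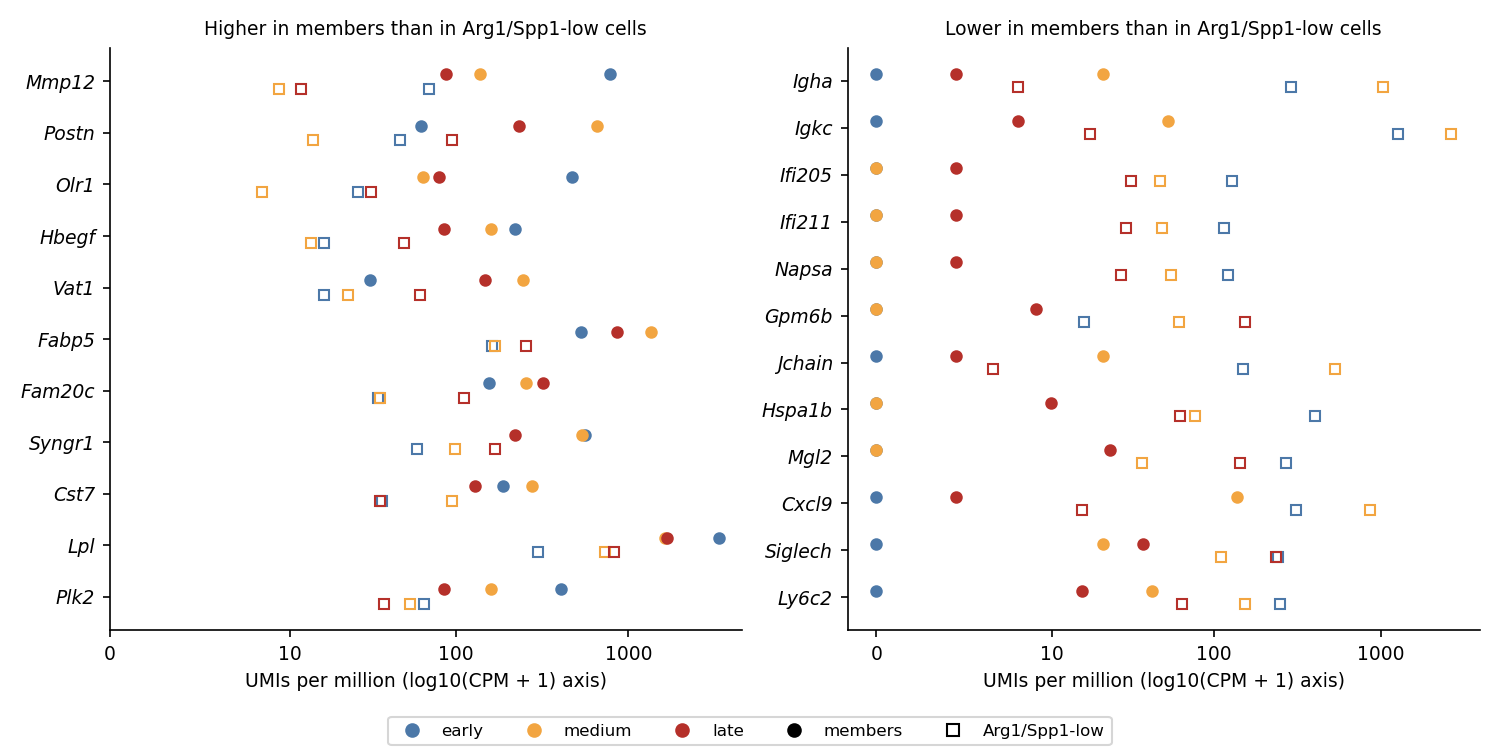
Level (log10(CPM + 1) axis) of genes named as higher or lower in members (filled circles) and Arg1/Spp1-low cells (open squares) of the early, medium and late samples. Mmp12 is at 780, 138 and 86.7 CPM in members against 69.1, 8.52 and 11.8 CPM, and the genes named as lower have no UMI in early members.

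Of the gene lists, that of phagocyte genes for lipid and lysosomes had the most calls. Of 27 tested, 7 were higher and 0 lower by edgeR (14 and 0 at an unadjusted p under 0.05, and 2 and 0 by DESeq2, of 23 genes to which it gave an adjusted p), with a median log2 fold change of 0.69, against -0.12 over all genes tested. Besides Fabp5 and Lpl these were Fabp4, the proton pump subunit gene Atp6v0d2 and the cathepsin genes Ctsd, Ctsb and Ctsl. Ctsd was at 27400, 14712 and 12488 CPM in members and at 3518, 6232 and 7930 CPM in Arg1/Spp1-low cells (1.45, SE 0.23, edgeR adjusted p 7.98e-07). Ctsb was at 15697, 11780 and 8957 CPM against 3594, 5845 and 6352 CPM (1.05, SE 0.23). In both, every member sample was above every other sample, and the gap was widest in the early one. Fabp4 was higher in the medium and late samples only, with 14 and 4 UMIs in members, and lower in the early one. Apoe, the apolipoprotein gene used in lipid transport, was at 18506, 24704 and 38584 CPM against 12233, 21407 and 38524 CPM, which did not separate the groups.

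Genes of matrix and its proteases had 2 higher (Mmp12 and Fn1) and 0 lower of 18 tested, with a median of 0.43, and 4 were higher with 1 lower where the p was left unadjusted (under 0.05), and 1 of 14 was higher by DESeq2. Angiogenic and EGF-family factors had 2 higher (Hbegf and Igf1) and 0 lower of 9, with a median of 0.44 (3 higher before adjustment, and 1 of 6 by DESeq2). The vessel growth factor gene Vegfa was at 0, 74.1 and 69.0 CPM in members and at 67.1, 97.6 and 57.1 CPM in the other cells, and the groups overlapped. Of 22 genes of glycolysis and hypoxia, edgeR called 0 (an unadjusted p under 0.05 gave 7 higher and 0 lower, and DESeq2 called 0 of 12), with a median of 0.52. Mif, a cytokine induced by hypoxia, was at 312, 318 and 185 CPM in members and at 52.9, 160 and 114 CPM in the other cells, without overlap, and did not pass the threshold (log2 fold change 1.10, SE 0.38). Among 13 genes of iron and oxidative stress, 1 was called higher, the ferritin light chain gene Ftl1, at 26339, 7896 and 6805 CPM against 4206, 5561 and 5521 CPM (0.97, SE 0.24), while 4 were higher before adjustment and 0 of 9 by DESeq2. The table also holds a ferritin pseudogene, Ftl1-ps1, whose reads may be split with those of Ftl1.

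Some genes of antigen presentation were lower. Of 8 MHC class II genes, 3 were lower and 0 higher by edgeR (5 and 0 at an unadjusted p under 0.05, and 0 of 7 by DESeq2), with a median log2 fold change of -1.26. Cd74, the invariant chain gene, was at 2278, 7790 and 7816 CPM in members and at 11923, 16906 and 9700 CPM in Arg1/Spp1-low cells. H2-Eb1 was at 905, 6446 and 4929 CPM against 8773, 13831 and 6866 CPM. Neither gene overlapped between the groups, and the edgeR adjusted p was 1.12e-05 for Cd74 and 0.0191 for H2-Eb1. Summed over the list, members held 4775, 26323 and 22468 CPM and the other cells 37556, 52736 and 29571 CPM, a log2 ratio of -2.97, -1.0 and -0.40 from early to late. Of 18 interferon-stimulated genes, 3 were lower (Cxcl9, Cxcl10 and Isg15) and 0 higher, with a median of -1.15, and 9 were lower before adjustment (p under 0.05) and 1 of 6 by DESeq2. Cxcl10, a chemokine for T cells, was at 374, 84.7 and 116 CPM in members and at 431, 543 and 370 CPM in the other cells. It was lower in members in each sample (-1.67, SE 0.36), although early members were above late Arg1/Spp1-low cells. Dendritic cells are rich in MHC class II, and their markers lay on both sides without passing the threshold. Of 6 tested, edgeR called 0 (1 higher and 1 lower at an unadjusted p under 0.05, and 0 of 2 by DESeq2), with a median of -0.98. Xcr1 was at 0, 0 and 9.85 CPM in members and at 73.2, 33.7 and 15.8 CPM in Arg1/Spp1-low cells, Flt3 at 0, 0 and 9.85 against 24.4, 20.9 and 9.85 CPM, and Ccr7 at 0, 0 and 3.94 against 30.5, 24.8 and 3.94 CPM, while Itgax was at 531, 434 and 495 against 126, 208 and 329 CPM. All 9 genes of the list summed to 874, 593 and 784 CPM in members and 525, 410 and 616 CPM in the other cells. The part of dendritic cells in these differences was not tested.

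Of 19 inflammatory cytokine genes, 1 was higher and 1 lower (before adjustment 1 and 6 had a p under 0.05, and DESeq2 called 0 of 16). Ccl6 was at 905, 508 and 623 CPM against 230, 127 and 350 CPM, and the monocyte-attracting Ccl2 was at 0, 10.6 and 90.7 CPM against 262, 191 and 128 CPM, both without overlap. Monocyte genes had 0 higher and 1 lower of 8 (Ly6c2), with a median of -1.31, and 5 were lower before adjustment and 0 of 4 by DESeq2. Alternative activation and arginine genes, other than Arg1, had 1 higher and 1 lower of 16, with a median of -0.26 (2 and 2 before adjustment, and 0 and 1 of 7 by DESeq2). The higher was Ccl24, a chemokine for eosinophils, at 0, 84.7 and 61.1 CPM against 0, 3.10 and 19.7 CPM, and the lower was Mgl2. Slc7a2, which encodes an arginine transporter, was at 0, 63.5 and 76.9 CPM against 6.10, 10.5 and 25.6 CPM and did not pass the threshold (log2 fold change 1.80, SE 0.72). The alternative marker Retnla was at 0, 0 and 717 CPM in members but at 191, 10.1 and 1229 CPM in Arg1/Spp1-low cells, so it was not particular to members. Nos2, which encodes the enzyme that competes with arginase for arginine, had no UMI in members of any sample.

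Lists with no call by edgeR in either direction included those of general macrophages (14 tested, median -0.03, but 0.09 without scaling factors), complement (9, median 0.01, but -0.11 with DESeq2), immune regulation (12, median 0.19), cell cycle (14, median -0.45) and immediate-early genes (12, median -0.59). At an unadjusted p under 0.05 they had 1 and 0, 0 and 0, 1 and 0, 0 and 1, and 0 and 5 genes higher and lower, and DESeq2 called 0 of 14, 6, 8, 4 and 12. Of the 2 polarization lists that the study used, the M1-like list had 0 higher and 2 lower of 12, with a median of -1.11, and the M2-like list 3 higher and 0 lower of 16, with a median of 0.56. At an unadjusted p under 0.05 these lists had 0 and 4, and 4 and 2, genes higher and lower, and DESeq2 called 1 of 8 lower in the M1-like and 0 of 10 in the M2-like list. The first 2 are Cxcl9 and Cxcl10, and the latter 3 are Ctsb, Ctsd and Fn1, which the lists above hold as well. Summed T cell genes were at 157, 108 and 39.4 CPM in the Arg1/Spp1-low cells, more than in the early and medium members, and the part of such cells in the differences was not tested.

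**Figure D4:**
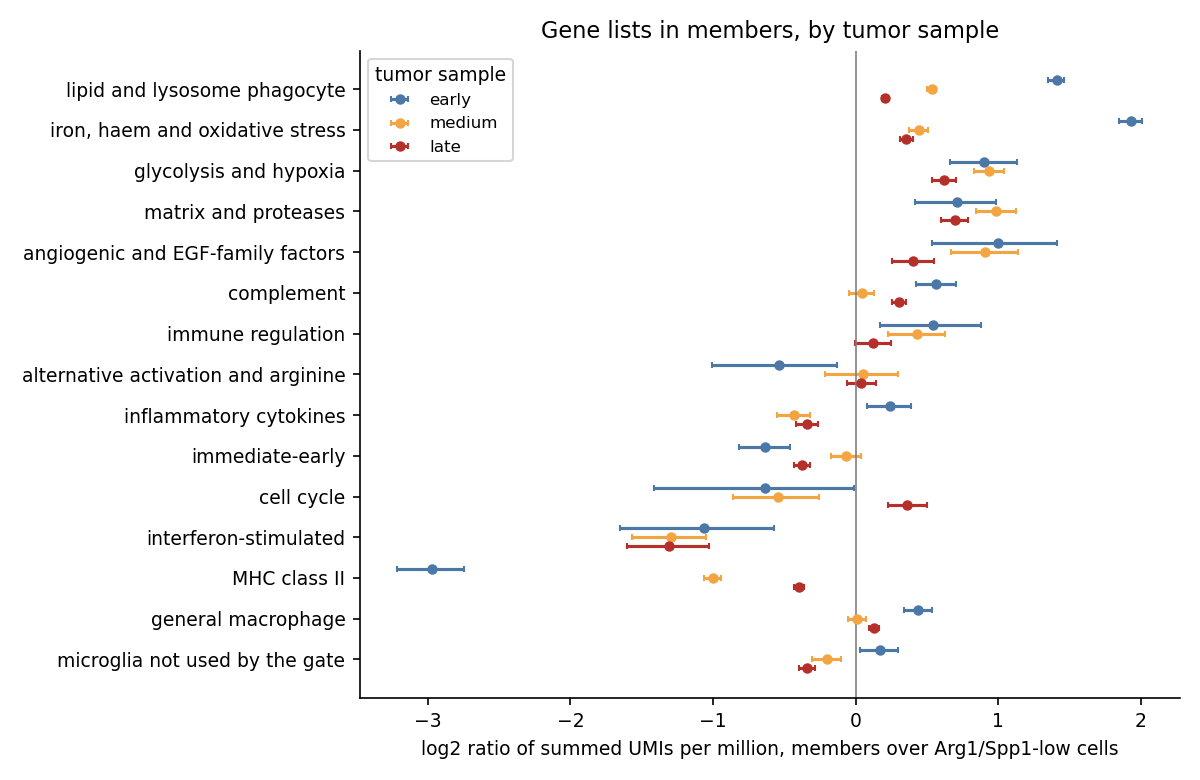
Log2 ratio of summed CPM, members over Arg1/Spp1-low cells, for each gene list in the early, medium and late samples, with 95% counting intervals. MHC class II genes lie at -2.97, -1.0 and -0.40, and lipid and lysosome genes at 1.41, 0.53 and 0.20.

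Promoters of the genes called higher were searched for the letters of 2 motifs, since lysosomal and protease genes were among them. Of the 26 genes, 15 matched the RefSeq promoter table of build GRCm38.p6, in which 32851 promoters were read over the 250 bases before the RefSeq gene start, on both strands. CACGTG, the core of an element common to lysosomal genes, was in 6.02% of all promoters and in those of Ctsd, Ctsl and Sgk1, 3 of the 15. TGANTCA, the letters of AP-1 sites, was in 6.75% of all promoters and in those of Mmp12, Olr1 and Igf1, also 3 of the 15. The percentages count promoters, whereas the 15 are genes, each counted if any of its promoters matched, so these shares are on unlike units. The 2 motifs do not overlap in letters. Shown 5′ to 3′ on the gene's strand, with the match in capitals, are the promoter of Ctsd at chr7:142387828-142388077 on the minus strand, which holds CACGTG at 2 places, and that of Olr1 at chr6:129507166-129507415, also on the minus strand. A match is a description of the sequence and not evidence of binding.
Ctsd: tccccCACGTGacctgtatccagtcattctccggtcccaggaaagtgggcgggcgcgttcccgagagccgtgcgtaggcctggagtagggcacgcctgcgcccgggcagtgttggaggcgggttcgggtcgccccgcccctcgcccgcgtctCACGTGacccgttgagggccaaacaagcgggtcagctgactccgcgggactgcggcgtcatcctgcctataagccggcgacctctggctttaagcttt
Olr1: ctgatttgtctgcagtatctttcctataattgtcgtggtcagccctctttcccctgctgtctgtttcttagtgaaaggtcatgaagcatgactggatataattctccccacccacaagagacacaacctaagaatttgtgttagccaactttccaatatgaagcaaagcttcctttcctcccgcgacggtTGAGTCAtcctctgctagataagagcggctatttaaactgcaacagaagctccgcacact

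Members were then compared with microglia of the same sort, to describe how they differed from cells chosen for microglial genes. Microglia held at least 5 UMIs of P2ry12, Tmem119 and Gpr34 together and at most 4 of Arg1, Spp1 and Gpnmb. There were 3609 early, 767 medium and 876 late such cells, with median depths of 2025, 1914 and 1997 UMIs. Microglia rich in Arg1, Spp1 and Gpnmb were left out by this rule. Differences in genes that go with the genes of either rule therefore follow in part from the selection. Of 10408 genes tested, edgeR called 280 (2.69%) higher and 402 (3.86%) lower in members, 682 (6.55%) in all. Without the medium sample the counts were 101 and 62, without the late sample 70 and 97, without the block 450 and 660, and by DESeq2 191 (2.28%) and 244 (2.91%) of the 8390 genes with an adjusted p. On thinned cells they were 172 and 269. DESeq2 also moved the median log2 fold change of all genes, from -0.18 to -0.31.

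Olr1 had the largest fold of the 12 genes named as higher, at 468, 63.5 and 78.8 CPM in members and at 1.68, 3.54 and 1.50 CPM in microglia, a log2 fold change of 6.14 (SE 0.73, edgeR adjusted p 2.25e-14). Fn1 was at 9.41, 15.9 and 44.6 CPM in microglia, against 125, 1196 and 1346 CPM in members (5.10, SE 0.39). Clec7a, a receptor for fungal glucans found on activated phagocytes, was at 374, 624 and 767 CPM against 3.48, 17.1 and 54.7 CPM (4.89, SE 0.40). The groups were apart in all 12 genes named as higher, which were chosen for a large fold, and in 8.55% of all 10408 genes tested. The 12 included Igf1, Apoc2, Cxcl14, Myof, Postn, Ch25h, Lgals3, Lilr4b and Lilrb4a. Of the 12, 8 passed the threshold in every alternative.

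Microglial genes that the selection did not use were lower. Members and microglia were chosen on opposite levels of P2ry12, Tmem119 and Gpr34. Genes that go with these were thus set to be lower by the selection, and their calls support nothing. Of 10 on that list, 9 were lower and 0 higher, 7 lower by DESeq2, with a median log2 fold change of -2.48, against -0.18 over all genes tested. Siglech, a sialic acid-binding receptor gene, was at 0, 21.2 and 37.4 CPM in members and at 1574, 1332 and 1549 CPM in microglia (-5.66, SE 0.40, edgeR adjusted p 3.71e-41). Cx3cr1, the fractalkine receptor gene, was at 1404, 1556 and 1774 CPM against 5886, 4649 and 5749 CPM (-1.88, SE 0.24), without overlap. Tspan18, which encodes a tetraspanin, had no UMI in any member and was at 108, 83.3 and 89.3 CPM in microglia. The lowest microglial sample was 17.6-fold a floor of 3 counts over all members, without the error of the microglial count. Of the 12 genes named as lower, 9 had no UMI in early members, 11 had groups that were apart (22.3% of all genes tested were apart in that direction), and 6 passed in every alternative. The choroid plexus gene Ttr, at 283, 0.591 and 40.6 CPM in microglia, was the one that overlapped.

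Against microglia, calls were mostly higher among lipid and lysosome genes, with 14 higher and 1 lower of 27 (median 1.01), matrix and proteases, with 8 and 0 of 17 (median 1.84), glycolysis and hypoxia, with 6 and 0 of 23 (median 1.04), and iron and oxidative stress, with 6 and 1 of 15 (median 1.25). DESeq2 called 11, 7, 4 and 6 genes of these lists higher and 0 lower. Apoe was at 2212, 4091 and 6756 CPM in microglia, and all 3 member samples were above these (2.60, SE 0.21). The glycolytic enzyme genes Pkm and Gapdh rose by 1.53 (SE 0.28) and 1.52 (SE 0.26). Of 12 immediate-early genes, 9 were lower and 0 higher (8 and 0 by DESeq2), with a median of -1.42. Egr1 was at 62.4, 159 and 298 CPM in members and at 2014, 1680 and 2704 CPM in microglia (-3.56, SE 0.31). Cytokine genes went both ways, with 6 higher and 5 lower of 20 (6 and 4 by DESeq2). Tnf fell by 2.22 on the log2 scale (SE 0.33), and the neutrophil-attracting Cxcl2 rose by 2.47 (SE 0.39). Of 8 MHC class II genes, edgeR called 0 in either direction (3 higher at an unadjusted p under 0.05, where 6% of all genes tested were higher and 9.64% lower, and 0 of 8 by DESeq2). Among alternative activation genes, 5 were higher and 2 lower of 14 (3 and 0 by DESeq2). Retnla was at 0, 0 and 717 CPM in members and at 0.516, 0 and 15.0 CPM in microglia, so the call (5.47, SE 0.74) rests on the late sample. Chil3, the gene of a chitinase-like protein, was at 0, 31.8 and 278 CPM in members and had 1 UMI in all microglia, in the medium sample.

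Within members, late was set against medium as a description, since the early sample had only 8 cells and each stage is 1 sample. Of 1299 genes with at least 60 UMIs over both stages, 120 (9.24%) were at least 2-fold higher and 52 (4%) at least 2-fold lower in late members. The genes of secreted proteins Retnla, Rnase2a and Ear2, the last 2 of the family of eosinophil-associated ribonucleases, had no UMI in medium members and took 717, 575 and 124 CPM in late ones. Their late levels were 22.6-fold, 18.1-fold and 3.91-fold a floor of 3 counts over medium members, without the error of the late counts. The 95% counting intervals of their log2 ratios of late over medium began at 4.19, 3.87 and 1.63. The 3 genes were found in 42, 53 and 27 of 151 late members. Rnase2a and Ear2 belong to a family of near-identical genes, so reads may be split among copies. All 3 were higher in late than in medium Arg1/Spp1-low cells too, at 1229 against 10.1 CPM for Retnla, so these genes differed between the samples in other Lyz2 cells as well.

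In contrast, Zc3h12a, which encodes an RNase that degrades cytokine mRNAs, was at 10.6 CPM in medium and 177 CPM in late members (log2 ratio 3.49, 95% counting interval 1.55 to 9.39), but at 136 and 120 CPM in Arg1/Spp1-low cells. The proliferation gene Top2a was at 21.2 and 185 CPM in members and at 134 and 126 CPM in Arg1/Spp1-low cells. For the adhesion gene Vcam1 and the phosphatase gene Dusp2 the interval excluded 0 in members and included 0 in Arg1/Spp1-low cells. Medium members held only 1 UMI of Zc3h12a and 2 UMIs each of Top2a, Vcam1 and Dusp2. Vcam1 was at 218 CPM in early members, from 7 UMIs, above the 156 CPM of late ones. Zc3h12a, Top2a and Dusp2 were lower in early than in late members. The difference between the cell groups was not tested. Of the 12 genes named as higher in late members, 8 were also higher in late Arg1/Spp1-low cells with an interval above 0. Of the 12 named as lower, 6 were also lower. The share over all genes compared was not counted, so these counts are no result about the named genes.

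The 12 genes named as lower in late members included H2-K1, H2-D1, H2-Q4 and H2-Q7, genes of MHC class I and its relatives, for which no list was fixed. H2-K1 was at 3090, 3641 and 1094 CPM in early, medium and late members, H2-D1 at 3495, 4361 and 1456 CPM, and H2-Q7 at 125, 624 and 154 CPM. Their log2 ratios of late over medium were -1.74, -1.58 and -2.03, and within run 2, which held 20 medium and 70 late members, they were -1.85, -1.55 and -1.69. Reads of H2 genes may be split among near-identical copies. The same genes were lower in late than in medium Arg1/Spp1-low cells, with log2 ratios of -1.83, -1.67 and -2.14. Postn was at 656 and 233 CPM in medium and late members, with the 1 high cell noted above, and rose from 13.9 to 94.5 CPM in Arg1/Spp1-low cells.

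Late members were also split by Arg1, as a description without a test, because Arg1 helped to select them. The 92 with an Arg1 UMI and the 59 without one had nearly the same median depth (3067 and 3082 UMIs). Retnla was at 1093 CPM in the first and 136 CPM in the second, a log2 ratio of 2.99 (95% counting interval 2.44 to 3.63), and Rnase2a at 863 and 131 CPM (2.70). MHC class II genes summed to 27677 and 14402 CPM, and monocyte genes to 633 and 196 CPM. Chil3 gave most of the monocyte UMIs, 134 of 195 with Arg1 and 7 of 39 without. With Chil3 left out, which was chosen after seeing the data, that list summed to 198 and 161 CPM, a log2 ratio of 0.29 (95% counting interval -0.34 to 0.97), with 1.13 in the run 2 and -0.74 in the run 3 library. In the other direction, Tnf was at 81.1 and 417 CPM (-2.34), the microglial gene Sparc at 594 and 1466 CPM (-1.30), and Cst7, a cystatin gene of activated microglia, at 77.9 and 206 CPM (-1.39). The microglial list summed to 7609 and 10576 CPM. Both the run 2 and the run 3 library gave the same sign as the whole for Retnla, Rnase2a, Tnf, Sparc, Cst7 and the MHC class II and microglial lists. Chil3 did not, at 435 and 35.2 CPM overall (3.53) but -3.22 in the run 2 library and 3.71 in the run 3 library, with UMIs in 10 and 2 cells. Spp1, at 2605 and 5303 CPM, was lower with Arg1, the direction that a selection on their sum favours, and its log2 ratio was 0.11 in the run 2 library and -2.19 in the run 3 library.

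**Figure D5:**
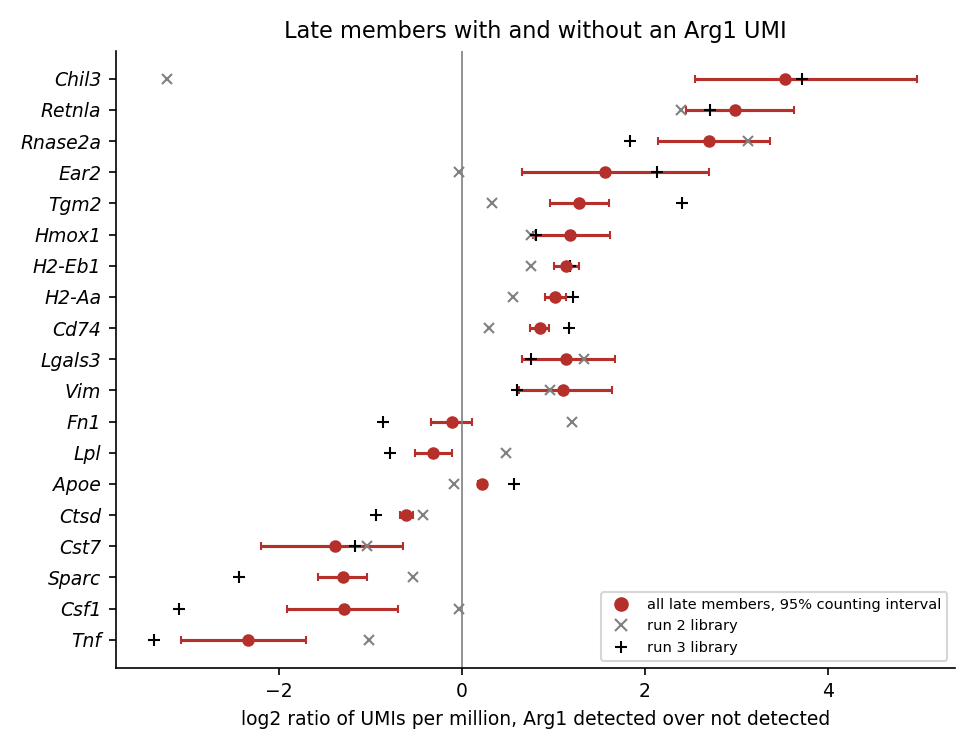
Log2 ratio of CPM in late members with an Arg1 UMI (92 cells) over those without (59 cells), with 95% counting intervals, and the same ratio in the run 2 and run 3 libraries alone. Retnla and Rnase2a lie at 2.99 and 2.70 and Tnf at -2.34, and Chil3 has opposite signs in the 2 libraries.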

How the data were processed

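Single cells were profiled by inDrop in mouse gliomas annotated with 3 stages. The authors counted reads with RapMap in bcbio-nextgen against the GRCm38 transcriptome and called cells against empty droplets, and the deposited values are raw UMI counts per gene and cell. The stage, sort and run of each library come from a deposited text annotation (unit: other). Builds named in the submitters' processing notes are mm10. The methods state removal of ambient RNA and doublets, but not whether this preceded the table, so both may be present. The 9091 columns of CD45- cells were not used. Members, comparison cells, gene lists and tests were chosen with earlier results of these data known.

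Counts were summed per tumor sample and cell group and tested with edgeR 4.0.16 in R 4.3.3 (quasi-likelihood, TMM, filterByExpr, robust, two-sided, tumor sample as a block, Benjamini-Hochberg over all genes tested, threshold 0.05). DESeq2 1.42.0 was an alternative, and genes to which it gave no adjusted p were left out of its counts. Members and comparison cells of a pair come from the same tumor sample. Their deviations from the group means correlated at 0.101, 0.138 and 0.216 over 6461 genes for Arg1/Spp1-low cells, and at 0.0861, 0.0938 and 0.132 over 9490 genes for microglia, and the block was kept. P-values rest on the variation over 3 samples, with the variance of each gene moderated toward that of other genes. With only 3 pairs they lean on this shared variance, so a small p does not show that a gene differed alike in each sample. Fn1 against Arg1/Spp1-low cells was called although it was lower in early members. Retnla against microglia was called although it had no UMI in early and medium members. SE was taken as the absolute log2 fold change divided by the square root of F. The scripts were tested on simulated data with known changes.

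Named genes were the 12 with the largest positive and the 12 with the largest negative fold among called genes with the same direction in 3 of 3 samples and a mean of at least 50 CPM in the higher group, and 4 genes per list with the largest absolute fold. Other list genes were named after their values were seen. By stage, the 12 highest and 12 lowest ratios were named among genes with at least 60 UMIs, an interval without 0 and the same sign in run 2. Aldoa has 2 identifiers and was left out. Some genes and 1 allele of the mice are not reported here.

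Scrublet (scanpy 1.11.5, expected rate 6%) called 33 of 11110 cells (0.297%) and had not worked, so doublets were kept, and the 5% highest scores were left out as an alternative. Each CD45+ sample held 10861862, 9743544 and 5406440 UMIs (early, medium, late), of which members had 32044, 94480 and 507436. Stage ratios have a prior of 0.5 UMIs. Intervals are exact (Clopper-Pearson, Poisson or conditional binomial, 95%). Those on UMIs leave out the spread between cells and so are too narrow where few cells hold most UMIs. Gene positions are from GENCODE M21.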

Additional observations from a re-analysis of the deposited data

Results flagged for a closer look

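Summed over a gene list, the ratio of members to Arg1/Spp1-low cells took opposite signs between tumor samples for 4 lists, with counting intervals that excluded 0. Each sample is 1 observation, so the difference between samples was not tested. The microglial list was at a log2 ratio of 0.17 for early, -0.20 for medium and -0.34 for late cells. Inflammatory cytokines stood at 0.24 (early), -0.43 (medium) and -0.34 (late). Cell cycle genes were at -0.63 (early) and -0.54 (medium) but at 0.36 (late), where late members held 1016 UMIs of them. Astrocyte genes were at 1.50 (medium) and -0.95 (late), from 11 and 22 UMIs in members.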

How the results depend on the processing

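Shares of members, pooled over the libraries of a stage, kept their order (early below medium below late) in every alternative. By library the order did not hold after thinning. Beyond the values in the report, the early share was 0 within runs 1 and 2, and without each library in turn the shares ran from 0.0596 to 0.237% in early, 0.719 to 1.08% in medium and 6.70 to 8.99% in late cells. The medium share was 1.58% and 0.376% with at least 3 and 10 UMIs. The late share was 9.43% and 3.35% with these limits, 9.10% with up to 5 UMIs of microglial and border genes, 5.95% after thinning, 21.3% within run 1 and 5.35% within run 3. Against Arg1/Spp1-low cells, 26 higher and 35 lower genes became 8 and 9 with DESeq2, 5 and 8 without the replicate block, and 5 and 5 after thinning. Without a filter on low counts 8 were higher and 24 lower, and without shared barcodes 14 and 34. Leaving out 1 tumor sample gave 1 to 29 higher and 1 to 40 lower. Against microglia, 280 and 402 became 450 and 660 without the replicate block, 191 and 244 with DESeq2, and 172 higher after thinning. Leaving out 1 tumor sample gave 70 to 420 higher and 62 to 473 lower. Genes that differed 2-fold between medium and late members numbered 172, and 353 within run 2, which holds fewer UMIs. Without 1 library they numbered 175 to 230. The log2 ratio of late over medium, leaving out 1 library, ran from -1.90 to 0.28 for Ccl9 (-1.50 with all), highest without the run 1 medium library, and from -2.22 to 0.53 for Csnk1a1, highest without the run 2 medium library that held 12 members. For Csnk1a1, 23 of the 32 UMIs of medium members came from 1 cell. Alternatives without shared barcodes or without run 1 were chosen after seeing the data. Early members, with 32044 UMIs, limit what could be seen of low genes there.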

Other observations

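Some lists beyond those described above also held genes that differed between members and microglia. In this comparison edgeR called 2.69% of all 10408 genes tested higher and 3.86% lower. Of 4 border macrophage genes that the selection did not use, 3 were called higher. The other, Stab1, was not called, with a mean of 91.7 CPM in members and 139 CPM in microglia. Ms4a7, a membrane gene of monocyte-derived and border macrophages, was at 31.2, 95.3 and 233 CPM in early, medium and late members. It was at 11.3, 21.9 and 27.6 CPM in microglia (log2 fold change 2.54, SE 0.56). The groups did not overlap, as was so for 8.55% of all genes tested in that direction. Itgax, which encodes CD11c, was at 531, 434 and 495 CPM against 31.3, 112 and 98.8 CPM, again without overlap (2.58, SE 0.37). It was the 1 dendritic cell gene called higher of 5 tested, whose median was -0.69. Fscn1 of that list was called lower, at 343, 127 and 242 CPM against 816, 564 and 793 CPM (-1.79, SE 0.33), and Ccr7 and Flt3 had no UMI in early and medium members and did not pass the threshold. Il1rn, which encodes the antagonist of the interleukin-1 receptor, was at 624, 434 and 181 CPM against 21.7, 59.1 and 34.6 CPM, and every member sample lay above every microglial one (3.17, SE 0.41). Vsir, the gene of the checkpoint protein VISTA, fell by 1.79 on the log2 scale (SE 0.30), and so did Itgam, the CD11b gene, by 1.57 (SE 0.32). Of 5 monocyte genes tested, 2 were called higher by edgeR and 0 by DESeq2. Ccr2, the receptor that draws monocytes into tissue, was at 0, 116 and 104 CPM in members and at 26.7, 26.6 and 31.1 CPM in microglia and did not pass the threshold.

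Top2a was found in 20 of 151 late and 2 of 35 medium members. The 16 cell cycle genes summed to 593, 1027 and 2002 CPM in early, medium and late members, and 0 of the 16 tested against microglia were called by edgeR, at an unadjusted p under 0.05, or by DESeq2.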
